A study of Sus scrofa with 12 samples.

Results

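The 12 sows of this study were grouped by 1 measured transcript, CYP19A3, a pig gene for aromatase, the enzyme that turns androgens into oestrogens. The sows of each set were chosen by the log2 value of 1 CYP19A3 probe set. Sows in which it stood at a log2 value of 9 or more form the aromatase-high set, 5 of 12 sows, and the 7 sows under 9 form the aromatase-low set. All were F2 sows of an Iberian by Meishan cross, killed on day 30 of pregnancy, and each gave 1 Affymetrix porcine GeneChip. The labels place 6 in a high prolificacy group, with the higher estimated breeding value, and 6 in a low prolificacy group, and say that each sample averages a sow's right and left ovaries. Sows are named here by group and animal number (high 1, low 1), and values are log2 expression after GCRMA. The aromatase-high set holds high 1, high 3, low 1, low 4 and low 6, and the aromatase-low set holds high 2, high 4, high 5, high 6, low 2, low 3 and low 5.

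The granulosa cells that line an ovarian follicle make oestradiol from androgens supplied by the outer theca cells, using aromatase and then 17-beta-hydroxysteroid dehydrogenase, and they secrete inhibin, which holds back follicle-stimulating hormone. Follicles grow by division of the granulosa cells. In a pregnant pig the ovary is dominated by corpora lutea, which make progesterone from cholesterol, while follicles of various sizes remain between them.

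CYP19A3 stood at 12.74 in high 1, 12.40 in low 6, 11.59 in high 3, 10.17 in low 4 and 9.98 in low 1. In the aromatase-low set it ran from 3.86 in high 2 and 4.25 in high 4 to a highest value of 7.98 in low 2. These values chose the sets and carry no test. Low 1, just inside the threshold, and low 2, just outside it, lay 2.0 apart, and the values formed a gradient with steps rather than 2 tight groups. The sets held 2 and 3 sows of high and low prolificacy against 4 and 3 (two-sided Fisher's exact test, p = 1). A second CYP19A3 probe set averaged 7.96 against 3.10 in the sets, whereas another one, at 6.29 against 6.55, did not follow it. The CYP19A1 probe sets lay between 1.63 and 2.77 in all sows, near the floor of the array.

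The 3 follicle transcripts named with the sets, with earlier results of these data known, are likewise given as a description. INHA, the alpha subunit of inhibin, stood at 11.43 in high 1, 11.34 in high 3, 9.75 in low 1, 9.55 in low 4 and 11.16 in low 6, and from 4.15 through a median of 7.31 to 9.09 in the aromatase-low set. The sets did not overlap, and their difference was 3.37 (10.4-fold, SE 0.73). HSD17B1, which converts oestrone to oestradiol, stood at 10.63, 12.44, 10.75, 10.26 and 10.39 in high 1, high 3, low 1, low 4 and low 6. Its aromatase-low values ran from 5.20 through 8.30 to 9.86, again without overlap, a difference of 2.82 (7.05-fold, SE 0.77). INSL3, the relaxin-like peptide of theca cells, stood at 12.18, 13.35, 10.83, 11.60 and 11.84 in the same order against 6.80, 8.72 and 11 (lowest, median and highest). Its sets overlapped, since high 6 at 11 lay above low 1, and they differed by 2.89 (7.39-fold, SE 0.68).

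**Figure D1:**
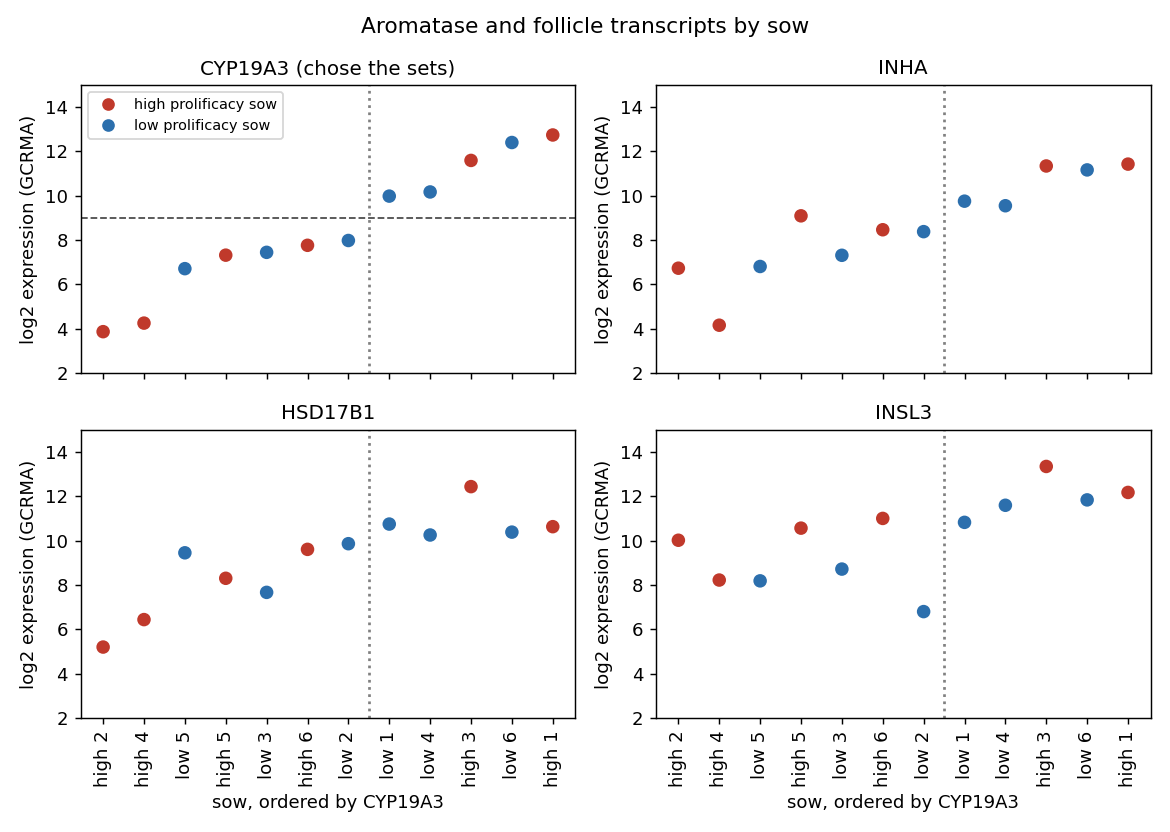
Log2 expression (vertical axes, GCRMA) of CYP19A3, INHA, HSD17B1 and INSL3 in 12 sows ordered by CYP19A3 (horizontal axis), 1 point per sow, coloured by prolificacy group; the dashed line marks the threshold of 9 and the dotted lines the border of the sets. INHA and HSD17B1 do not overlap across the border, while INSL3 in high 6 (11) lies above low 1 (10.83).

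Whether the aromatase-high ovaries were rich in follicles could not be read from the defining markers alone. AMH (1.68 to 3.27 over the 12 sows), FOXL2 (1.92 to 2.37) and INHBB (2.09 to 2.15), transcripts of granulosa cells, lay near the floor. AMH was highest in high 3, low 4 and low 1 (3.27, 2.69 and 2.47). FSHR, the receptor for follicle-stimulating hormone, passed 4 in the same sows only (5.28, 4.50 and 4.22). CYP17A1, the androgen-forming enzyme of theca, passed 4 in high 1 (5.23), high 3 (4.16) and low 4 (4.11). The sets are therefore called by their aromatase level. In whole ovary, fewer cells of a type and less RNA per cell cannot be told apart.

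The arrays were alike in rank order, with mean rank correlations from 0.981 to 0.989, the lowest in high 3 and the next lowest in high 2. The array median was 4.93 in the aromatase-high and 4.86 in the aromatase-low set (two-sided exact permutation test over 792 assignments, p = 0.00505, adjusted over 6 array measures p = 0.0152), and centring each array moved the median of all differences from -0.01 to -0.08. The 3' minus 5' difference of the actin control, which grows as RNA is shortened, averaged 2.12 ± 0.14 (SD, n = 5) against 2.53 ± 0.45 (n = 7), exact permutation p = 0.0859, adjusted p = 0.172. It was highest in high 2 (3.23) and high 4 (2.98), the sows with the lowest CYP19A3. The same difference of the GAPDH control averaged 1.88 against 1.90 (exact permutation p = 0.897, adjusted p = 0.897), and was also highest in high 2 (2.34) and high 4 (2.16). The share of probe sets above 4 was 56.22% in the aromatase-high and 55.76% in the aromatase-low set (exact permutation p = 0.00505, adjusted p = 0.0152). Albumin lay above 6 in low 1, low 4, high 5 and low 3 (exact permutation p = 0.437, adjusted p = 0.611). The part of the actin measure and of albumin in these results was not tested beyond the refits given beside them.

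Of 19 gene lists examined, cell division genes had the highest median difference between the sets (1.34, 22 of 22 tested members higher in aromatase-high sows) and cholesterol synthesis genes the lowest (-0.83, 15 of 15 lower). Few single genes separated the sets at the adjusted threshold. Because a measured value defined the sets, a p-value describes how closely a probe set went with aromatase among these 12 sows and tests no assigned condition. With limma and Benjamini-Hochberg adjustment over 13386 probe sets, CYP19A3 left out, 2 passed an adjusted p of 0.05 (0.0149%), and both were higher in the aromatase-high set and have no gene symbol here. Ssc.13251.1.A1_at averaged 6.15 ± 0.35 (SD, n = 5) against 5.09 ± 0.11 (n = 7), and Ssc.7517.1.A1_at 5.38 ± 0.60 against 3.72 ± 0.18, each higher in 5 of 5 sows with no overlap. The second was above 4 in the 5 aromatase-high sows and in high 5 (4.05) only, so it passed the filter on low values, above 4 in at least 6 sows, through the set in which it was high. The next 67 probe sets shared an adjusted p of 0.0672. Without adjustment, 2961 probe sets had a p under 0.05, against 669.3 expected on average if none differed. Probe sets on the same 12 arrays vary together, so the count can lie far from that number without any difference between the sets. It was 1983 without high 3 and 1264 with the animal number as a block. A 2-fold or larger difference was seen in 254 probe sets in the higher and 118 in the lower direction. The count of 2 became 0 without high 1, high 2, high 4, high 6, low 5 or low 6, 92 without low 3, 37 without high 5, 11 without low 4, 8 without low 1 and 4 without low 2.

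A fit that used the CYP19A3 level of each sow in place of the threshold called 375 probe sets with limma at an adjusted p of 0.05, 226 rising (1.69%) and 149 falling (1.11%) with CYP19A3. They included 161 genes with 1 symbol. This count leaned on single sows: it was 65 without high 1, 67 without high 3, 77 without high 4, 105 without low 4, 136 without high 2, 178 without high 6, 190 without low 1, 197 without low 5 and 752 without low 6. It was 436 without the 2 sows farthest from the median CYP19A3 level, of which 181 were among the 375. With the actin measure as a covariate 21 passed, and 375 of 375 kept their sign. Of 39 named probe sets that passed, 5 held with that covariate, 6 without high 2 and high 3 together, 2 without the 4 sows with albumin above 6, and 5 in all 12 fits that left out 1 sow. The marker INHA is in each of these counts and the marker HSD17B1 in the last. Here "rose" and "fell" refer to this fit.

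The 15 genes of smallest p in the higher direction had an adjusted p of 0.0672 in the comparison of the sets, so none passed there. PCLAF, a partner of the replication clamp PCNA, stood at 8.24, 9.20, 9.10, 8.14 and 8.02 in high 1, high 3, low 1, low 4 and low 6. Its aromatase-low values ran from 5.39 through a median of 6.69 to 7.82, a difference of 1.88 (3.67-fold, SE 0.36) without overlap, and it rose by 0.33 per log2 unit of CYP19A3 (limma adjusted p = 0.029). CDCA3, which helps cells enter mitosis, stood at 5.28, 7.01, 5.93, 5.21 and 5.45 against 3.08, 3.97 and 5.08, a difference of 1.83 (3.55-fold, SE 0.37), and rose as well (limma adjusted p = 0.0255). In both genes high 3 and low 1 were the highest sows, and the 5 aromatase-high sows lay above all 7 others. Among aromatase-low sows CDCA3 was above 4 only in high 5 (5.08) and high 6 (4.41), so it too passed the filter through the set in which it was high. HMGB2, a chromatin protein abundant in dividing cells, stood at 11.07, 11.92, 11.08, 10.79 and 10.83 against 8.87, 9.74 and 10.66 and rose (limma adjusted p = 0.0211). MYBL2, a transcription factor of the cell cycle, differed by 1.39 without overlap, with a limma adjusted p of 0.0634 for the level. HMGN2, a nucleosome-binding protein, differed by 0.65.

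The other genes of that group have varied roles. FST, follistatin, which binds and neutralises activin, stood at 6.82, 7.20, 6.41, 6.31 and 7.27 against 4.44, 5.49 and 6.03, a difference of 1.45 (2.74-fold, SE 0.29) without overlap. Its brighter probe set differed by 1.23, with overlap, and each of the pair rose (limma adjusted p = 0.029 and 0.0286). GCLC, the catalytic subunit of the enzyme that limits glutathione synthesis, stood at 11.88, 12.10, 11.62, 11.09 and 11.93 against 10.30, 10.72 and 11.21, with overlap at low 4. It differed by 1.0 (1.99-fold, SE 0.20), rose (limma adjusted p = 0.0123), and passed with the actin covariate (0.0455) and in all 12 fits that left out 1 sow, but not without high 2 and high 3 (0.0669). Further GCLC probe sets differed by 1.37, 1.27 and 0.46. SAA2, a serum amyloid A protein, differed by 1.17, ADAMTS6, a secreted metalloprotease, by 1.18, TCEA3, a transcription elongation factor, by 1.68, and REXO2, an RNA-degrading exonuclease of mitochondria, by 0.65. SERHL2 (1.09), TMEM120A (0.95) and MFSD4A (1.36) belong to the group as well. MCM2 (1.75, without overlap), given below with the DNA replication genes, completes it. Of the 15, 12 did not overlap between the sets, against 1.13% of all probe sets in this direction, a count that the choice by smallest p favours.

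**Figure D2:**
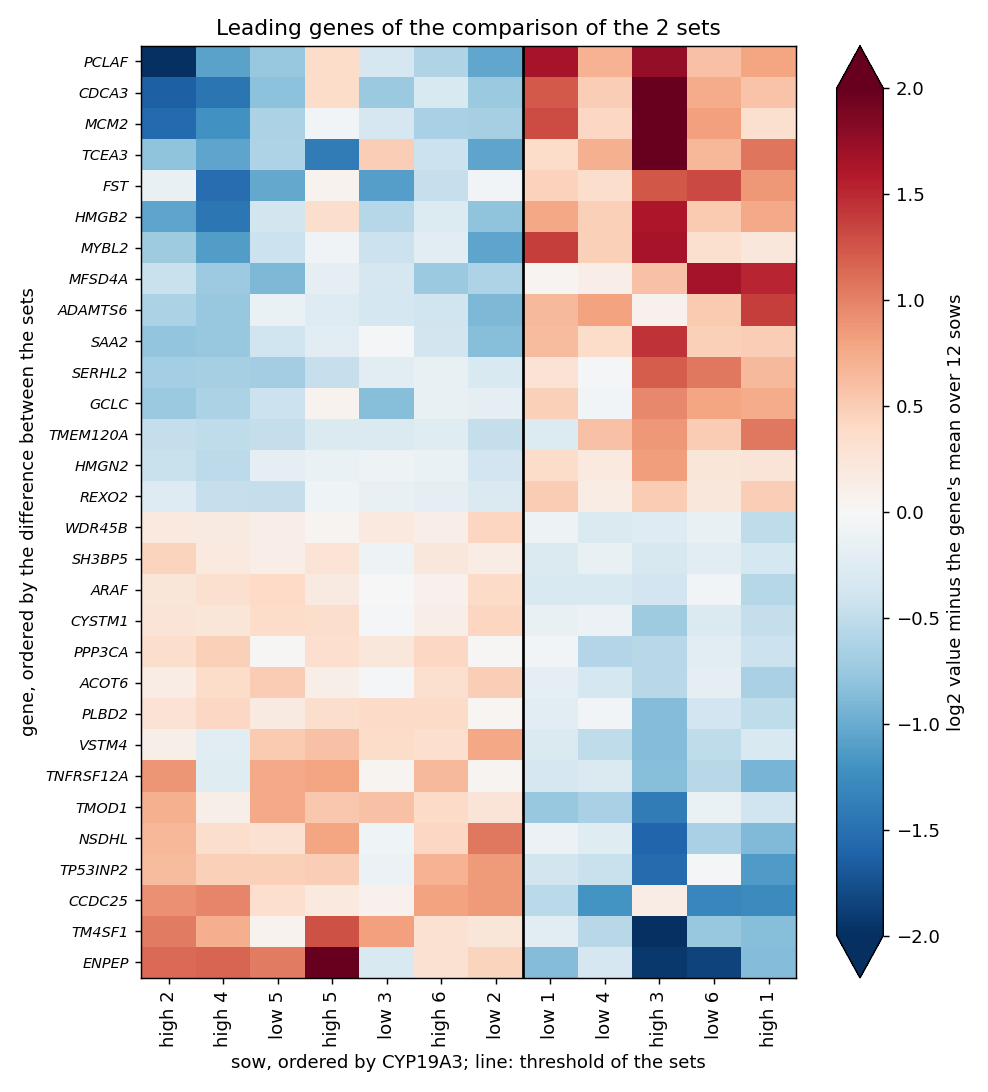
Deviation of each log2 value from its gene mean (colour, shown from -2 to 2 with larger deviations at the end colours) for the 15 genes of smallest p in each direction (vertical axis) in sows ordered by CYP19A3 (horizontal axis); the black line marks the threshold of the sets. The upper 15 genes are mostly red to the right of the line and the lower 15 mostly blue, and high 3 carries the deepest colours in several rows.

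The 15 genes of smallest p in the lower direction had adjusted p from 0.0672 to 0.072 in the comparison of the sets. ENPEP, a cell-surface aminopeptidase that cleaves angiotensin, stood at 5.58, 4.52, 5.59, 6.12 and 4.59 in high 1, high 3, low 1, low 4 and low 6. Its aromatase-low values ran from 6.15 through 7.50 to 8.52, a difference of -2.01 (4.02-fold, SE 0.39), and the sets met without overlap at low 4. It fell by 0.36 per log2 unit of CYP19A3 (limma adjusted p = 0.0286). TM4SF1, a membrane protein prominent in endothelial cells, stood at 10.55, 9.32, 11.18, 10.84 and 10.65 against 11.47, 12.12 and 12.67, a difference of -1.53 (2.89-fold, SE 0.30), and fell (limma adjusted p = 0.0299). CCDC25, a membrane receptor for extracellular DNA, differed by -1.43 and fell (limma adjusted p = 0.0291), although its other probe set differed by -0.42 and did not pass (0.0865). TMOD1, which caps actin filaments, differed by -1.15 without overlap, with a limma adjusted p of 0.0702 for the level.

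TP53INP2, an autophagy protein, differed by -1.20, NSDHL, an enzyme of cholesterol synthesis, by -1.20, and TNFRSF12A, the receptor for the cytokine TWEAK, by -1.01, and its other tested probe set fell (difference -0.95, limma adjusted p = 0.0465). VSTM4 differed by -0.85, PLBD2 by -0.70, ACOT6 by -0.66, PPP3CA, the catalytic subunit of calcineurin, by -0.63, CYSTM1 by -0.60, ARAF, a kinase of the MAP kinase cascade, by -0.55, SH3BP5 by -0.45 and WDR45B by -0.44. Of the 15, 13 did not overlap, against 1.06% of all probe sets in this direction, again by the choice of smallest p.

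Among transcripts of granulosa cells in growing follicles, 14 of the 26 on the array were tested, CYP19A3 left out. In 11 the difference was above 0 and in 3 below it, with a median of 0.66 against -0.01 over all probe sets. In the higher direction 3 did not overlap and in the lower 1, against 1.13% and 1.06% of all probe sets. With CYP19A3 4 rose, against 1.69% of all. INHA and HSD17B1 are among the 3 without overlap, with SERPINE2. The 4 that rose were FST, SERPINE2 and the markers INHA and HSD17B1, which were named with the sets and are no support for them. SERPINE2, an inhibitor of plasminogen activators and thrombin, stood at 13.24, 12.99, 12.31, 12.59 and 12.74 against 10.92, 11.67 and 12.19, a difference of 1.06 (2.09-fold, SE 0.22) without overlap. It rose (limma adjusted p = 0.00785) and passed with the actin covariate (0.0357), without high 2 and high 3 (0.0293) and in all 12 fits that left out 1 sow, but not without the sows with albumin above 6 (0.0666). FOXO1, a transcription factor, differed by 1.29 and CCND2, a cyclin induced by follicle-stimulating hormone, by 0.74. GATA4 differed by 0.08. The 3 lower members were TNFRSF12A (-1.01), the 1 without overlap in that direction, INHBA (-0.38) and NR5A2 (-0.07).

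Inhibin, activin and bone morphogenetic protein signalling held 14 tested members of 20, and the median was 0.07. INHA and FST rose, and ACVR1B, an activin receptor, fell (difference -0.37, limma adjusted p = 0.0343). Over all probe sets 1.69% rose and 1.11% fell. INHBA, the beta A subunit shared by inhibin and activin, stood at 6.46 against 6.84, a difference of -0.38 opposite to that of INHA, and did not pass (limma adjusted p = 0.0631). BMPR1B, a receptor of oocyte-derived growth factors, differed by -1.28, and its other probe sets by -1.22 and -1.52, none of them past the threshold (limma adjusted p for the level 0.0833, 0.0967 and 0.0911). The median of this list was -0.04 with the actin covariate, so the list had no stable sign.

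Each gene list is counted by the brightest probe set of a gene. Of 8 theca members tested of 11, 2 were higher, INSL3 and LHCGR, and 6 lower, with a median of -0.19 and 0 calls with the level, although another probe set of FDX1, the electron donor of steroid-forming enzymes, fell (difference -0.57, limma adjusted p = 0.0482). LHCGR, the receptor for luteinising hormone, stood at 11.56 ± 0.53 against 10.91 ± 0.94, and high 2 of the aromatase-low set held the highest value, 12.81. Of 7 oocyte transcripts 3 were tested, ZP4, GDF9 and KIT, with differences of 1.07, 0.52 and 1.10 and limma adjusted p of 0.143, 0.174 and 0.0648 for the level. ZP4, a protein of the egg coat, lay between 4.02 and 5.68 in the aromatase-high set and above 4 elsewhere only in low 3 (5.36). It thus passed the filter on low values through the set in which it was high. KIT exceeded the aromatase-low mean in 3 of 5 aromatase-high sows. Within low prolificacy ZP4, GDF9 and KIT differed by 0.34, 0.12 and 0.34, and within high prolificacy by 1.89, 1.06 and 2.16. BMP15 lay between 1.98 and 2.03 in all sows, near the floor.

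Of the other enzymes and receptors of oestrogen, none passed. HSD17B7, which acts in oestradiol and cholesterol synthesis, differed by -0.87, HSD17B12 by -0.36 and HSD17B4, which inactivates oestradiol, by -0.27. HSD17B2, which also inactivates it, ranged from 3.32 to 7.74 over the sows and differed by -0.88. ESR1, the oestrogen receptor, differed by 0.12 and PGR, the progesterone receptor, by -0.47. The 9 members tested of 13 had a median of -0.27, with HSD17B1 the single call, against 1.69% rising over all probe sets.

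Cell division genes formed the list with the highest median. All 22 tested members of 27 on the array were higher in the aromatase-high set, with a median of 1.34. Of these 5 did not overlap, against 1.13% of all probe sets in this direction, and 8 rose with CYP19A3, against 1.69% of all. CCNB1, the cyclin that starts mitosis, stood at 8.43, 10.10, 9.12, 8.42 and 7.69 in high 1, high 3, low 1, low 4 and low 6 against 5.23, 7.0 and 8.21, a difference of 1.93 (3.81-fold, SE 0.52), and it rose (limma adjusted p = 0.0363). The sets overlapped, since high 5 at 8.21 lay above low 6. NDC80, a kinetochore protein, stood at 5.57, 6.55, 6.26, 5.42 and 5.52 against 3.74, 4.35 and 5.31 without overlap and rose (limma adjusted p = 0.0422). BIRC5 (difference 1.91), DLGAP5 (1.68), TOP2A (1.61), NUSAP1 (1.32), CDCA3 and HMGB2 also rose, and CCNB2 (1.76) did not pass (limma adjusted p = 0.0541).

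The order of the sows within that list did not follow CYP19A3 throughout. The mean deviation of the list from its gene means was 1.77 in high 3, 0.92 in low 1, 0.39 in low 4, 0.31 in high 1 and 0.20 in low 6, so the sows with the most CYP19A3, high 1 and low 6, stood lowest in the aromatase-high set. High 5 of the aromatase-low set stood at 0.23, between them, and high 2 and high 4 were lowest, at -0.85 and -1.28. The median difference was 1.0 without high 3, 0.93 without high 2 and high 3, and 1.15 with the actin covariate. The number of calls with the level ran from 0 to 13 as single sows were left out, and it was 0 with the actin covariate, without high 2 and high 3, and without the sows with albumin above 6.

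DNA replication genes were higher in 17 of 17 tested members of 23, with a median of 0.60. Of these 4 did not overlap, against 1.13% of all probe sets, and 4 rose, against 1.69% of all. MCM2, a subunit of the replicative helicase, stood at 5.57, 7.47, 6.55, 5.66 and 6.06 in high 1, high 3, low 1, low 4 and low 6 against 3.69, 4.60 and 5.19, a difference of 1.75 (3.35-fold, SE 0.33) without overlap, and it rose (limma adjusted p = 0.029). RFC3 (0.77) and RFC5 (0.70), subunits of the clamp loader, and PRIM2 (0.60), a primase subunit, rose too. PCNA, the sliding clamp, differed by 0.64 without overlap and CDC45 by 0.72 without overlap, with limma adjusted p of 0.0702 and 0.1 for the level. RRM2, which supplies deoxynucleotides, differed by 1.88 (limma adjusted p = 0.106). Without high 3 the median was 0.43 and 16 of 17 were higher, and no member was called with the actin covariate.

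**Figure D3:**
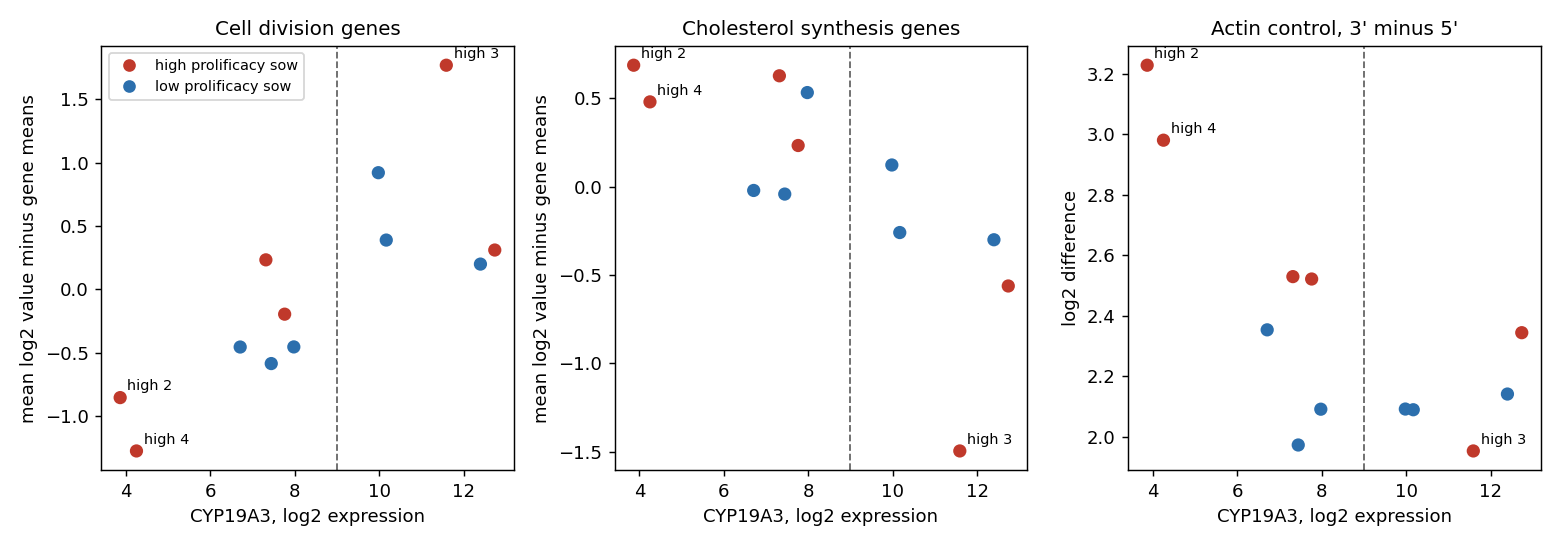
Mean deviation of the cell division genes (left, 22 genes) and the cholesterol synthesis genes (middle, 15 genes) from their gene means, and the actin control 3' minus 5' log2 difference (right), against the CYP19A3 log2 level (horizontal axes) in 12 sows coloured by prolificacy group; dashed lines mark the threshold of 9. High 3 is the extreme of both lists (1.77 and -1.50), and high 2 and high 4 have the lowest CYP19A3 and the highest actin difference (3.23 and 2.98).

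Cholesterol synthesis and uptake genes were lower in the aromatase-high set in 15 of 15 tested members of 16, with a median of -0.83. Of these 1 did not overlap, against 1.06% of all probe sets, and 2 fell, against 1.11% of all. NSDHL, a sterol dehydrogenase, stood at 7.34, 6.63, 8.11, 7.98 and 7.57 in high 1, high 3, low 1, low 4 and low 6 against 8.13, 8.64 and 9.28, and fell (limma adjusted p = 0.0486), a call that held in 1 of the 12 fits without 1 sow. Its sets met without overlap at low 1, and its other probe set differed by -1.25 and also fell (limma adjusted p = 0.0452). TM7SF2, a sterol reductase, differed by -1.30 and fell (limma adjusted p = 0.0387). INSIG1 (-1.38), SQLE (-1.09), ACAT2 (-0.86), HMGCS1 (-0.83), MSMO1 (-0.81) and SCAP (-0.66) did not pass. The list's mean deviation was -1.50 in high 3 and -0.56 in high 1, the lowest sows, and 0.12 in low 1. The median was -0.57 without high 3, -0.56 without high 2 and high 3, -0.65 with the actin covariate, and -1.43 and -0.32 within high and low prolificacy. The 2 calls became 0 with the actin covariate and without high 2 and high 3.

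Luteal transcripts held the steroid-forming machinery. STAR, the protein that delivers cholesterol to mitochondria, stood at 14.43 ± 0.23 against 14.69 ± 0.09, CYP11A1, which makes pregnenolone from cholesterol, at 13.28 ± 0.38 against 13.73 ± 0.12, and RLN2, relaxin, at 15.06 ± 0.09 against 15.13 ± 0.08. Of 19 tested members of 21, 15 were lower and 4 higher, with a median of -0.29. The 1 that fell, against 1.11% of all probe sets, was NPC2, a lysosomal cholesterol carrier (difference -0.49, limma adjusted p = 0.0469). That call was lost in each of the 12 fits that left out 1 sow, and another NPC2 probe set differed by 0.09. HSD3B1, which makes progesterone, differed by -0.43 in the brighter and by -0.82 in the dimmer probe set, of which the dimmer fell (limma adjusted p = 0.02) and the brighter did not pass (0.0643).

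Genes that respond to gonadotrophins and cyclic AMP were lower in 7 of 8 tested members of 11, with a median of -0.61. Of these 2 fell, against 1.11% of all probe sets. VEGFA, a growth factor for blood vessels, stood at 9.84, 9.66, 10.96, 10.41 and 10.58 in high 1, high 3, low 1, low 4 and low 6 against 10.69, 11.17 and 11.55, with overlap at low 1, and fell (limma adjusted p = 0.0291). A further VEGFA probe set differed by 0.09 and another by -0.94. CEBPB, a transcription factor of luteinisation, differed by -0.75 and fell (limma adjusted p = 0.0493), a call that held in 1 of the 12 fits that left out 1 sow. AREG, an EGF-like ligand induced by luteinising hormone, differed by -1.17 and CREM by -0.90, neither past the threshold (limma adjusted p = 0.113 and 0.138).

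The matrix of the follicle had a median of 0.00 over 17 tested members of 19, and of -0.07 with median centring. Against 1.69% of all probe sets, 2 members rose, SERPINE2 and LAMB2, a laminin chain (difference 0.67, limma adjusted p = 0.0478). The LAMB2 call held in 2 of the 12 fits without 1 sow, and neither with the actin covariate nor without high 2 and high 3 or the sows with albumin above 6. FBLN1, fibulin 1, differed by 1.26 and VCAN, versican, by 1.04, 1.01 and 1.10 in its 3 tested probe sets, of which that at 1.01 passed (limma adjusted p = 0.0405). TIMP1, a protease inhibitor, differed by -0.85 and TNFAIP6 by -0.80. All 7 tested members of the insulin-like growth factor list were higher, with a median of 0.30 and 0 calls, among them STC1 (1.01), IGFBP6 (0.70), IGFBP5 (0.61) and IGF1 (0.13).

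Markers of other cells of the ovary gave 1 call by the brightest probe set of each gene. Smooth muscle transcripts were higher in 12 of 12 tested members of 13, with a median of 0.50 and 0 calls, among them FLNA (0.81), CNN1 (0.72), TPM1 (0.64) and TAGLN (0.61), and the list's mean deviation ran from 0.05 to 0.75 in the aromatase-high and from -0.67 to 0.37 in the aromatase-low set. A second, dimmer probe set of ACTG2, the gamma actin of smooth muscle, differed by 2.70 and rose (limma adjusted p = 0.0222). Stromal fibroblast transcripts had a median of 0.40, with 8 of 15 higher. Of these COL1A2 rose (difference 1.27, limma adjusted p = 0.0441), with 0.06 in its other probe set. COL5A1 (1.17) and COL6A3 (1.21) did not overlap and did not pass (limma adjusted p = 0.0568 and 0.106), and LUM differed by -0.03. Over all probe sets 1.69% rose and 1.13% did not overlap in the higher direction. Endothelial transcripts were lower in 12 of 16, with a median of -0.32 and 0 calls, for example FLT1 (-0.85), ENG (-0.66), PECAM1 (-0.33) and CDH5 (-0.31). The part of these cell types in the results above was not tested.

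Macrophage and lymphocyte transcripts were lower in 8 of 9 tested members of 17, with a median of -0.15 and 0 calls, among them CD74 (-0.72) and CD163 (-0.67), while PTPRC averaged 3.2 in each set and CD3E 2.1, near the floor. The 3 tested members of the surface epithelium list had a median of 0.12, with KRT19 at 2.3 and 2.7. Red cell and plasma proteins had a median of 0.28 over 5 tested members, and HBB differed by 0.29. Immediate early and heat shock genes, which can respond to tissue handling, had a median of -0.14 over 17 tested members, with JUN at 0.98, FOS at -0.08 and HSPH1 at -0.42. No member of these 4 lists was called with the level, and the medians of the last 2 had the opposite sign within high prolificacy sows (-0.02 and 0.18).

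**Figure D4:**
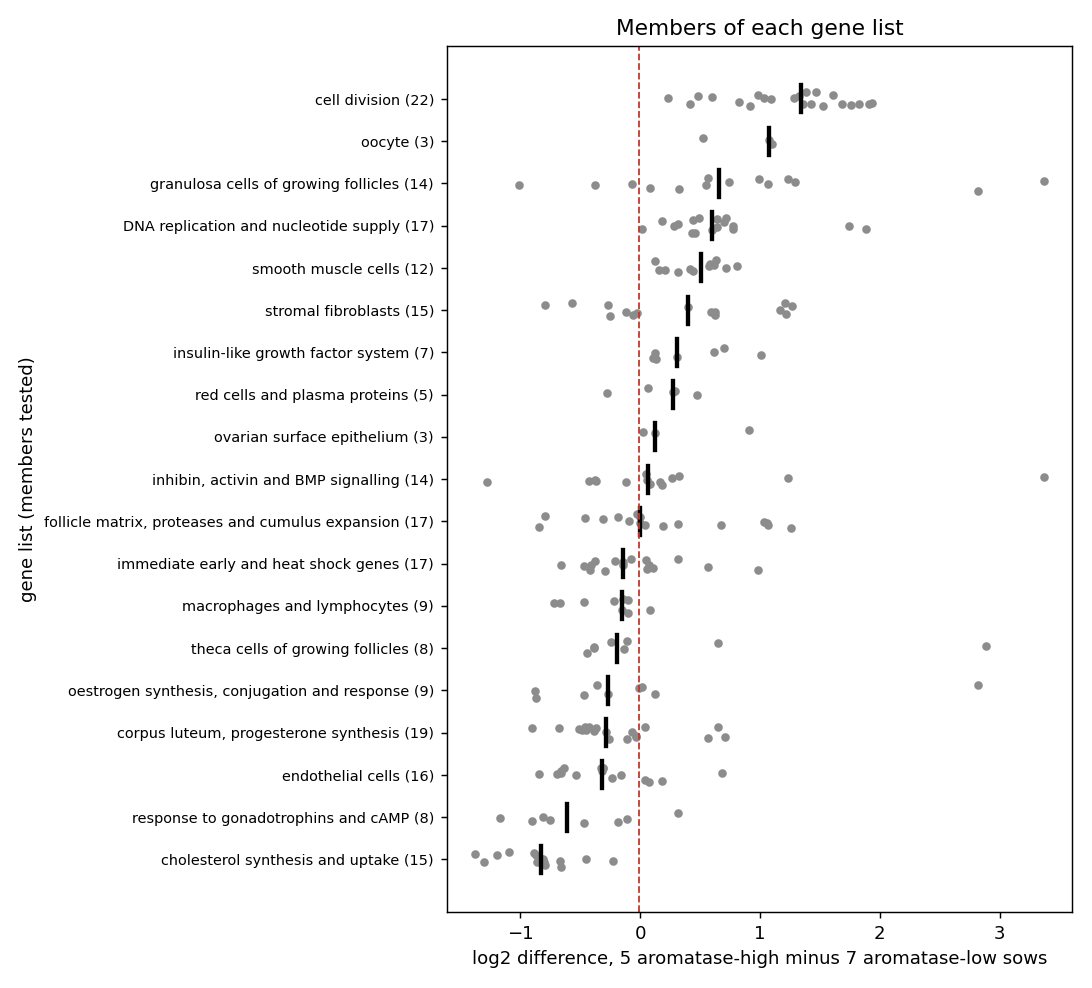
Log2 difference, 5 aromatase-high minus 7 aromatase-low sows (horizontal axis), of each tested member (grey points, spread vertically for sight) of 19 gene lists (vertical axis, number of members tested in brackets); black bars are list medians and the red dashed line the median of all probe sets (-0.01). Cell division (1.34) has the highest median and cholesterol synthesis (-0.83) the lowest, and INHA, INSL3 and HSD17B1 are the points near 3.

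The sets were also compared within each prolificacy group, where they share no sow. The 100 probe sets of smallest p among high prolificacy sows (2 aromatase-high against 4) had the same direction among low prolificacy sows (3 against 3) in 92 cases, with a median difference in that direction of 0.42, and 7 passed 1 there. The 100 chosen in low prolificacy sows had the same direction in high prolificacy sows in 96 cases, with a median of 1.38, and 64 passed 1. Over all 13386 probe sets the directions matched in 69.2%, and 1.52% and 7.37% passed 1 in the matching direction. Of the genes followed here, INHA differed by 4.28 in high and 2.66 in low prolificacy, HSD17B1 by 4.15 and 1.47, PCLAF by 2.11 and 1.69, ENPEP by -2.56 and -1.42, and INSL3 by 2.81 and 3.52. High 2 and high 4, the sows of lowest CYP19A3, and high 3 are in the high group. The difference of the set effect between the groups gave 0 calls with limma, with a smallest adjusted p of 0.592 and 929 probe sets at an unadjusted p under 0.05. Within the low group alone the level fit called 0 probe sets (933 at an unadjusted p under 0.05), and within the high group 10.

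**Figure D5:**
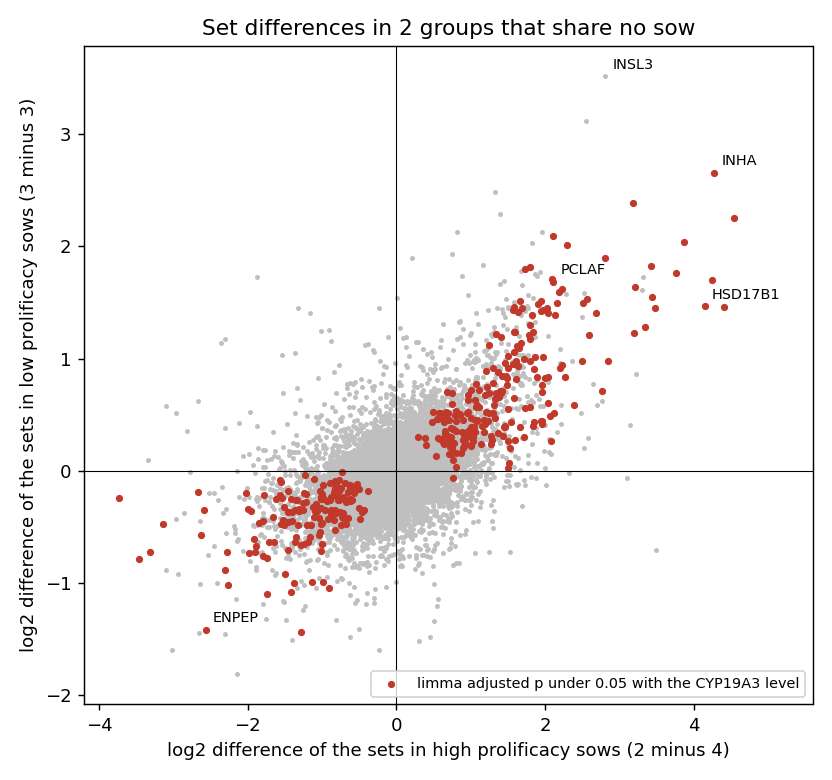
Log2 difference of the sets among high prolificacy sows (horizontal axis, 2 minus 4 sows) and low prolificacy sows (vertical axis, 3 minus 3) for each of 13386 probe sets (grey), with the 375 that went with the CYP19A3 level over all 12 sows in red. Those in red were chosen over all sows, so their position is no separate support; INHA (4.28 and 2.66) and HSD17B1 (4.15 and 1.47) lie to the upper right and ENPEP (-2.56 and -1.42) to the lower left.

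High and low prolificacy, the contrast of the labels, were then compared with the aromatase set as a term, which asks whether the spread along aromatase hides a difference between the groups. With limma 0 of 13386 probe sets passed, the smallest adjusted p was 0.129, and 1231 lay at an unadjusted p under 0.05, against 755 without that term. CYP19A3 itself averaged 7.92 ± 3.66 (SD, n = 6) in high and 9.11 ± 2.12 (n = 6) in low prolificacy sows. The leading values in this fit were ASAH1, the lysosomal acid ceramidase (-1.19), GLO1, which detoxifies methylglyoxal (-0.79), and RTN3, a protein of the endoplasmic reticulum (-0.71), lower in high prolificacy sows, and ATP9A, a phospholipid flippase (1.13), and FAM210B (0.70), higher in them. INSL3 differed by 1.76 and INHA by 0.28 between the groups in this fit (limma adjusted p = 0.418 and 0.933). Leaving out high 6 or low 1 gave 1 call each.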

How the data were processed

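Ovary RNA of 12 sows was measured on 1 array each. Per the labels' protocols, tissue was kept frozen and biotin-labelled cRNA was hybridised. The deposited values are log2 expression, 1 per probe set. GCOS and GCRMA are named in the submitters' processing notes, without versions. The scale was read from the values, 0.97 to 15.34. GCRMA compresses differences near the floor. The labels do not say whether tissue, RNA or values of a sow's ovaries were averaged. Each sow is a separate animal, and the number of sows limits the precision.

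Sets were formed from probe set Ssc.4548.1.A1_at at 9. The sets, markers, gene lists and tests were chosen with earlier results of these data known. Of 24123 probe sets, 124 controls and 9 CYP19A3 probe sets were left out, and the 13386 above 4 in at least 6 sows were tested (6653 with 1 symbol, 5078 genes) by moderated two-sided tests of limma 3.58.1 (lmFit, eBayes; R 4.3.3), with Benjamini-Hochberg adjustment. Differences are aromatase-high minus aromatase-low on the log2 scale, and slopes are per log2 unit of CYP19A3. Array measures were compared by exact permutation. Symbols came from the array annotation: 10099 probe sets had 1, 198 several and 13826 none. Names in a block of 62 control probe sets appeared to be displaced by 21 places. Of all shifts within the block, that one gave the smallest mean gap to matching control probe sets, 0.47 against 4.84 as named. The names were moved back by it for the actin and GAPDH measures, which rest on this inference. Named genes are the 15 of smallest p in each direction, since fewer than 15 passed (a gene is given by its probe set of smallest p), the members of smallest p in each list (at most 5), the markers, and 5 genes in each direction for prolificacy; other members named with their values were chosen after those were seen. Lists use the brightest probe set of a gene and carry no test.

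Simulated data of the same size were drawn independently for each probe set from a normal distribution, with changes put into randomly picked probe sets. There the comparison of the sets called 74% of probe sets changed by 1 and 98% of those changed by 2. For the fit on the level, changes of 1 and 2 were put along CYP19A3 scaled to the spread of set membership, not per log2 unit. That fit called 77% and 98%. Unchanged probe sets called beside them numbered 8 and 7, and data with no change gave 0 calls in each. The simulation held no variation shared between probe sets, so these shares do not measure what the real comparison could detect.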

Additional observations from a re-analysis of the deposited data

Results flagged for a closer look

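Single sows stood far from the others of their set by Dixon's criterion in 20 of 224 groups of values examined, where chance gives about 1 in 20. The groups share the same 12 sows, so the flags are not independent. In 12 of the 20, the sow was high 3, whose array also had the lowest mean rank correlation. Its values lay above the other aromatase-high sows in SAA2 (9.45), HMGN2 (13.49), HMGB2 (11.92), HSD17B1 (12.44), TPM1 (12.46) and TAGLN (11.92), and below them in HSD17B12 (10.55), HSD17B4 (11.47), HSD3B1 (12.24), AREG (9.57), MSMO1 (11.80) and CD74 (8.72). Low 6 was low in HSPH1 (9.52).

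Among aromatase-low sows, low 3 stood apart in TP53INP2 (8.77, low), ZP4 (5.36, high) and JUN (12.37, high). Low 2 was high in WDR45B (6.12) and KIT (5.87), high 2 in LHCGR (12.81) and high 5 in PGR (6.77).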

How the results depend on the processing

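The comparison of the sets called 2 probe sets. It called 0 with no filter, with a filter at 6, with quantile normalization, with median centring, with the animal number as a replicate block, within high or within low prolificacy, without high 2 and high 3, and with the actin covariate. It called 1 with a prolificacy term or array weights, 11 with albumin as a covariate, 142 without the sows with albumin above 6 and 375 with the CYP19A3 level. Leaving out 1 sow gave 0 to 92.

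The alternatives of the level fit were chosen after the data were seen. It called 43 with no filter, 574 with a prolificacy term, 1 with the replicate block, 10 within high and 0 within low prolificacy, 184 with array weights, 32 without high 2 and high 3, 16 without the sows with albumin above 6, 21 with the actin covariate, 193 with albumin as a covariate, and 65 to 752 without 1 sow. With median centring it called 478, 201 rising and 277 falling, against 226 and 149. At an unadjusted p under 0.01 the sets split 550 to 517, and 382 to 816 with median centring. The causes were not tested, beyond the smaller numbers of sows or larger numbers of probe sets in some fits. The prolificacy comparison ran from 0 to 1 without 1 sow.

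Same-numbered animals of the groups correlated from -0.45 to 0.17 in their deviations from the group means over the tested probe sets. These correlations gave no sign that the numbers pair the sows, but they could miss a weak pairing. The direction of 105 named probe sets was followed, without those named only by the surface epithelium list, the plasma list or the prolificacy comparison. Some of those left out changed sign. HP of the plasma list differed by 0.48, and by -0.70 without the sows with albumin above 6. WT1 of the epithelium list differed by 0.12, and by -0.12 within low prolificacy. The filter at 6 was run only for the 86 that passed it. Of the 105, 101 kept their direction under every setting run for them. The others were COL15A1 (0.0032) and PGR (0.0448) within low prolificacy, IGF1 (-0.0232) with the actin covariate and CD163 (0.0576) with the replicate block. Differences among probe sets near the floor are compressed, which limits AMH, FOXL2, INHBB and CYP17A1.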

Other observations

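Some named genes of the level fit lay outside the gene lists and the leading genes and were picked after their values were seen. HIF1A, the oxygen-sensing transcription factor, averaged 7.40 in aromatase-high and 6.14 in aromatase-low sows and rose by 0.28 per log2 unit of CYP19A3 (limma adjusted p = 0.0101), while its other probe set differed by 0.53 and did not pass (0.0631). NDRG2, a stress-responsive differentiation gene, averaged 9.56 and 7.90 (limma adjusted p = 0.0199), EPHX2, soluble epoxide hydrolase, 8.02 and 7.11 (0.026), and SFTPC, known as a surfactant protein of the lung, 6.75 and 4.60 (0.0213). Among those that fell, FASN, fatty acid synthase, averaged 9.28 and 10.52 (limma adjusted p = 0.0277), and SLC25A37, a mitochondrial iron importer, showed differences of -0.92 in 1 probe set and -0.71 in another (0.0255 and 0.0222).

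ACTG2, the enteric gamma actin of smooth muscle, differed between its probe sets. The brightest one, used in the smooth muscle list, averaged 9.9 in aromatase-high and 9.8 in aromatase-low sows. Another averaged 10.90 and 8.20 and rose with CYP19A3 (limma adjusted p = 0.0222).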
